A study of Mus musculus with 6 samples.

Results

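CatSper is the calcium channel of the sperm tail. This text describes its transcripts and those of other sperm ion channels in testis of mice without the serine protease gene Prss55. The genes were Catsper1, Catsper2, Catsper3, Catsper4, Catsperb, Catsperg1, Catsperg2, Kcnu1, Lrrc52 and Hvcn1. They were taken by their gene symbols in the array files, which gave 15 probes for these 10 genes among 41174 probes and 21165 gene names in all. Testis total RNA of 3 Prss55-/- and 3 wt male mice was hybridised to 6 single-dye 4 x 44k whole mouse genome oligonucleotide arrays, 1 array for each mouse. The mice of both genotypes were 6 to 8 weeks old and on a mixed 129Sv/C57BL/6 background. The Prss55-/- mice carried an allele made by homologous recombination in every cell and came from crosses of heterozygotes, and the wt mice carried the intact gene.

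CatSper opens at alkaline pH inside the cell and lets calcium into the tail, which drives the whip-like hyperactivated beat that sperm need for fertilisation. Its pore is formed by the 4 proteins CATSPER1 to CATSPER4, which sit in the membrane with auxiliary subunits such as CATSPERB and CATSPERG. KCNU1, also called SLO3, is the potassium channel of mouse sperm, and LRRC52 is its auxiliary subunit. HVCN1 is a voltage-gated proton channel that lets acid out of the cell. The transcripts of these channel genes are known from meiotic and haploid germ cells, and Hvcn1 is also known from B cells and macrophages. In whole testis fewer cells of a type and less RNA per cell cannot be told apart.

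The values are log2 processed signals, quantile-normalized over the 6 arrays. The share of spots that the scanner software called well above background ran from 69.5% to 72.9% of an array. A probe was tested if every array of the Prss55-/- mice or every array of the wt mice had it above background in this sense, which gave 28606 probes. The probe of the targeted gene Prss55 (mm9 chr14:64694275-64694333) read 14.99 ± 0.0843 (SD, n = 3) in Prss55-/- and 15.89 ± 0.120 (SD, n = 3) in wt testis, a log2 difference of -0.90 (limma adjusted p = 0.0100). The Prss55-/- signal was thus 0.536-fold of the wt signal and stood between the 96.8th and 97.1th percentile of the arrays. The study reported Prss55 expression as absent in Prss55-/- mice, by RT-PCR for RNA and by Western blotting and immunofluorescence for protein. Whether the array probe lies inside the deleted stretch was not analysed here, so its signal is a weak check of the labels. The adjusted p was 0.0596 without Prss55-/- array 2, 0.0698 without Prss55-/- array 3 and 0.0627 without wt array 1. The 3 Prss55-/- arrays were on 1 slide, wt arrays 1 and 2 on another and wt array 3 on another, so that slide and genotype cannot be told apart. Meiotic and haploid germ cell markers (8 of 8 genes in each list) were bright enough to be tested, and 6 of 7 epididymis genes were too dim. The 8 round spermatid markers were all positive in the difference between Prss55-/- and wt testis, with a median of 0.13 on the log2 scale. In limma 0 passed an adjusted and 5 an unadjusted p of 0.05, where 1.19% and 19.8% of all genes did. The summed linear signal of these markers ranged from 226224 to 237519 in Prss55-/- and from 207298 to 220063 in wt testis. Its part in the channel results was not tested. Of the 8 elongating spermatid markers 6 were negative, with a median of -0.02, and 1, a lower one, passed the unadjusted threshold. Of the 8 spermatocyte markers 5 were positive and 3 negative, with a median of 0.02, and 1 higher and 1 lower passed that threshold. Of 6 Leydig cell genes 5 were negative, with a median of -0.59, 0 past the adjusted and 2 past the unadjusted threshold in limma, and a summed signal of 33507 to 52753 in Prss55-/- and 52061 to 59945 in wt testis.

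All 15 channel probes lay well above background on all 6 arrays, so all were tested and none passed through 1 genotype alone. After Benjamini-Hochberg adjustment over the 28606 probes, 1 of the 15, a Catsperb probe, passed an adjusted p of 0.05 in limma, where 1.21% of all probes did, 0.559% of them higher in Prss55-/- testis. Unadjusted p was below 0.05 for 7 of the 15 probes, from Catsper1, Catsper3, Catsper4, Catsperb and Lrrc52, against 19.1% of all probes, and 3 of the 7 were Catsperb probes. All 7 were higher in Prss55-/- testis and 0 were lower, while 9.82% of all probes passed as higher and 9.29% as lower. At an unadjusted p below 0.05 and 2-fold, 0 of the 15 passed in limma, and 0.608% of all probes did. The genotypes did not overlap for 7 of the 15 probes, against 26.3% of all probes. In all 7 the Prss55-/- arrays lay above the wt arrays, as they did for 13.4% of all probes, and in 0 they lay below, as for 12.9% of all probes. The median log2 difference, Prss55-/- minus wt, was 0.12 over the 15 probes and 0.05 over the brightest probe of each gene, and it was 0.002 over all probes tested. Counted by the brightest probe of each gene, 0 of the 10 genes passed the adjusted threshold and 3 the unadjusted one in limma, beside 1.19% and 19.8% of all genes.

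**Figure D1:**
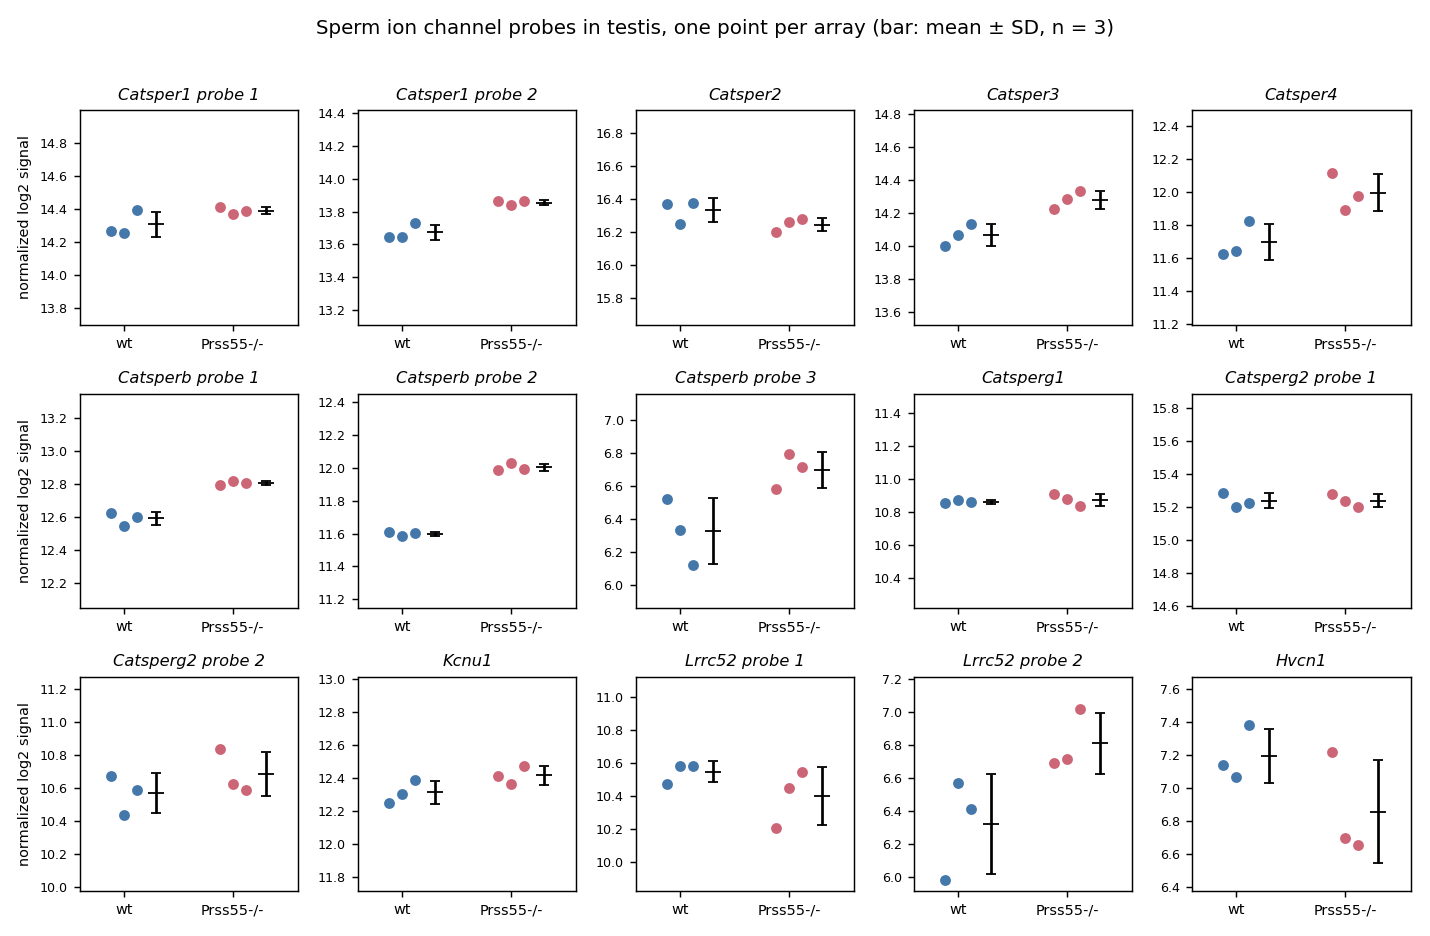
Normalized log2 signal (y axis, the same height of log2 units in each panel) of the 15 channel probes on the 3 wt (blue) and 3 Prss55-/- (red) arrays. Points are arrays, black bars are mean ± SD, and probes of a gene are numbered from the brightest. The Catsperb panels, probe 2 of Catsper1, Catsper3, Catsper4 and probe 2 of Lrrc52 have every red point above every blue one.

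The pore subunits come first. Catsper1, whose protein carries a histidine-rich start linked to pH sensing, had 2 probes on chromosome 19, both with positions wider than their 60 bases, so that each joins separated stretches of the genome. They lie at mm9 chr19:5341470-5343899 and chr19:5340393-5341449, and are printed because their measured differences were unequal, which the test below could not decide:

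Catsper1 probe 1: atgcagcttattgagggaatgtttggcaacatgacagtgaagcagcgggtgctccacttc
Catsper1 probe 2: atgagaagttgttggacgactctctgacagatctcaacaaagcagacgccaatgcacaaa

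Probe 1 of Catsper1 read 14.41, 14.37 and 14.38 on the Prss55-/- arrays and 14.26, 14.25 and 14.39 on the wt arrays. The genotypes overlapped because wt array 3 lay as high as the Prss55-/- arrays, and the log2 difference was 0.08 (95% interval -0.05 to 0.22, limma adjusted p = 0.454). Probe 2 read 13.86, 13.84 and 13.86 in Prss55-/- and 13.65, 13.65 and 13.73 in wt testis. It did not overlap between genotypes and differed by 0.18 (interval 0.07 to 0.29, unadjusted p = 0.00813, limma adjusted p = 0.125), which did not pass the adjusted threshold. The difference of probe 1 was smaller than that of probe 2 by 0.10 on the log2 scale, with no overlap between genotypes (exact permutation test over arrays, two-sided, p = 0.1; 3 arrays against 3 can go no lower, and the value was 0.2 after adjustment over 6 pairs of probes of the same gene).

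Catsper2 is measured by 1 probe at mm9 chr2:121223280-121223339. It is shown because it holds the run TGAGAAAAGC (in capitals) 3 times, with starts 15 bases apart. The run was picked from this probe and then counted over the array. Of the 41174 probes 5 hold it at all, counting both strands, and only this one holds it 3 times:

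Catsper2 probe: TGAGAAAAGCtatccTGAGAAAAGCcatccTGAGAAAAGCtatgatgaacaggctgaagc

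No other probe on the array matched it over more than 33 of its 60 bases, and matches to transcripts were not tested. It read 16.20, 16.26 and 16.28 in Prss55-/- and 16.37, 16.25 and 16.38 in wt testis. The genotypes overlapped at wt array 2, and the difference was -0.09 (interval -0.22 to 0.05, limma adjusted p = 0.455), the one pore subunit with a negative sign.

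Catsper3 (mm9 chr13:55909439-55909498) read 14.22, 14.29 and 14.33 in Prss55-/- and 14.00, 14.07 and 14.13 in wt testis. All Prss55-/- values were above all wt values, and the difference of 0.22 on the log2 scale (interval 0.08 to 0.35, unadjusted p = 0.00878) had a limma adjusted p of 0.129. Catsper4 (mm9 chr4:133769259-133769619) read 12.12, 11.89 and 11.98 in Prss55-/- and 11.63, 11.64 and 11.82 in wt testis. It was the most variable pore subunit, with an SD of 0.112 in Prss55-/- and 0.111 in wt testis, and the lowest Prss55-/- array was close to the highest wt array. Its difference was 0.30 (interval 0.09 to 0.50, unadjusted p = 0.0117, limma adjusted p = 0.144), or 1.23-fold. Of the 5 pore subunit probes 4 were thus positive and 0 passed the adjusted threshold.

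The auxiliary subunit Catsperb, which has a large part outside the cell, had 3 probes on chromosome 12. Probes 1 and 2, at mm9 chr12:102863480-102863791 and chr12:102862909-102863454, carry RefSeq transcript accessions of Catsperb, lie next to each other and each join separated stretches of the genome. They are printed because they measure neighbouring parts of the transcript and their measured differences were unequal, which the test below could not decide:

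Catsperb probe 1: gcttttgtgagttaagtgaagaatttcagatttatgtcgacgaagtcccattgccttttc
Catsperb probe 2: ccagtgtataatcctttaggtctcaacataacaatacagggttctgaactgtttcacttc

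Probe 2 read 11.99, 12.03 and 11.99 on the Prss55-/- arrays and 11.61, 11.59 and 11.60 on the wt arrays. The 2 groups stood apart by far more than their spread, with an SD of 0.0219 in Prss55-/- and 0.0103 in wt testis. The difference was 0.40 (standard error 0.0423, interval 0.30 to 0.51, limma adjusted p = 0.0159), so that Catsperb was 1.32-fold higher in Prss55-/- testis by this probe. The adjusted p was 0.108 without Prss55-/- array 2, 0.101 without Prss55-/- array 3, 0.0860 without wt array 1 and 0.0672 without wt array 2. The difference itself stayed between 0.35 and 0.42 under every setting tried. The setting with a slide term cannot remove a slide effect, because no slide held both genotypes.

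Probe 1 of Catsperb read 12.80, 12.82 and 12.81 in Prss55-/- and 12.63, 12.55 and 12.60 in wt testis. Here too the genotypes did not overlap, and the difference was 0.22 (interval 0.11 to 0.33, unadjusted p = 0.00284, limma adjusted p = 0.0868). It was smaller than that of probe 2 by 0.19 in log2, with no overlap between genotypes (two-sided exact permutation test, p = 0.1). That p is the lowest that 3 arrays against 3 can give, and it was 0.2 after adjustment over the 6 pairs. Both probes have the same GC content of 38.3%, and neither matched another probe of the array over more than 33 of 60 bases. Probes were matched to each other only, so binding to other transcripts was not tested. Probe 3 of Catsperb (mm9 chr12:102788521-102788580) is a dim probe whose accessions include no RefSeq transcript. It read 6.58, 6.80 and 6.71 in Prss55-/- and 6.53, 6.34 and 6.12 in wt testis. The lowest Prss55-/- array was just above the highest wt array, and the difference was 0.37 (interval 0.09 to 0.65, unadjusted p = 0.0173, limma adjusted p = 0.170), or 0.21 with normexp background correction.

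**Figure D2:**
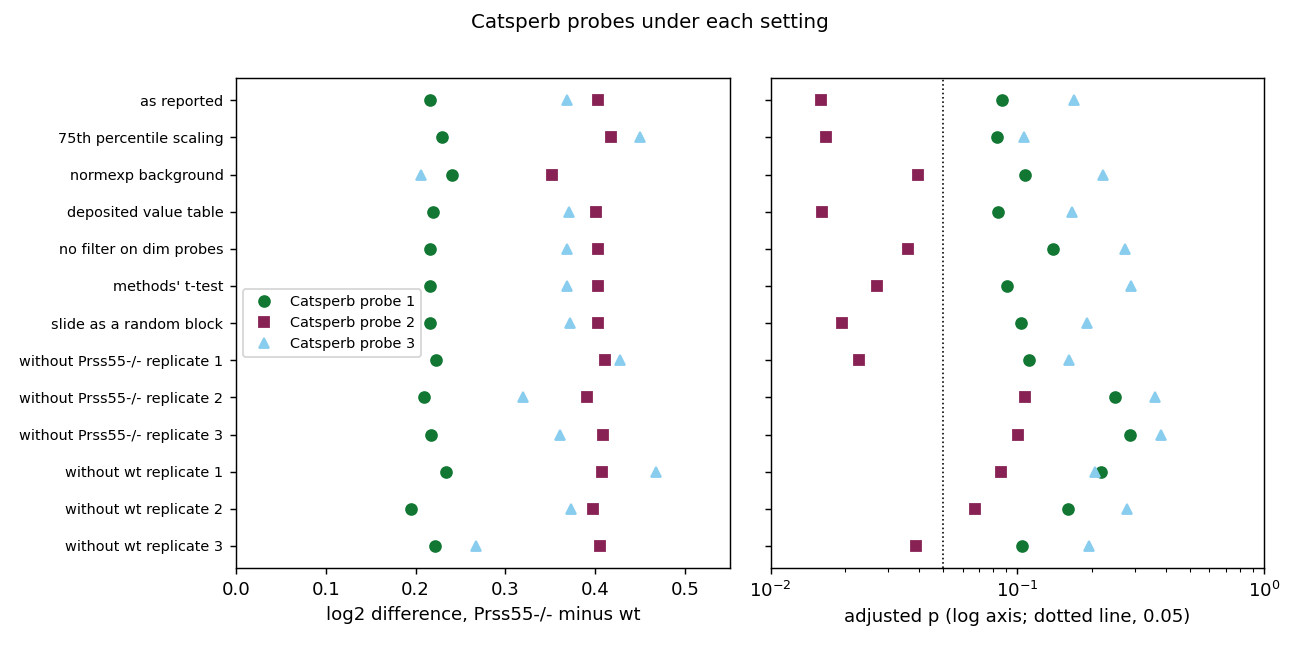
The 3 Catsperb probes as reported and under 12 other settings, which change the scaling, background, value table, filter, test or slide term or leave out an array: log2 difference, Prss55-/- minus wt (left), and adjusted p on a log axis with 0.05 as a dotted line (right). Probe 2 keeps a difference of 0.35 to 0.42 throughout and lies right of the line in 4 of the 6 fits that leave out an array.

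Catsperg1 and Catsperg2 are neighbouring copies of the gene for a further auxiliary subunit. The accessions of the Catsperg1 probe (mm9 chr7:29982064-29982123) and of probe 2 of Catsperg2 (mm9 chr7:30510284-30510343) belong to RefSeq transcripts of both genes, so that either signal may be shared between the copies. Both are printed for that reason:

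Catsperg1 probe: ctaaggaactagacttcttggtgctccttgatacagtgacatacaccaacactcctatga
Catsperg2 probe 2: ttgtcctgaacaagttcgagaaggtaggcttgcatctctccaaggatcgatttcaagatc

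The Catsperg1 probe read 10.91, 10.88 and 10.83 in Prss55-/- and 10.85, 10.87 and 10.86 in wt testis. The genotypes overlapped, and the difference was 0.01 with a narrow interval of -0.10 to 0.12 (limma adjusted p = 0.902). Probe 2 of Catsperg2 read 10.84, 10.62 and 10.59 in Prss55-/- and 10.68, 10.44 and 10.59 in wt testis, which also overlapped, with a difference of 0.12 (interval -0.11 to 0.35, limma adjusted p = 0.535). Probe 1 of Catsperg2 (mm9 chr7:30482245-30482304), with accessions of Catsperg2 alone, read 15.28, 15.23 and 15.20 in Prss55-/- and 15.29, 15.20 and 15.22 in wt testis, and its difference was 0.00 (interval -0.12 to 0.12, limma adjusted p = 0.990). The intervals of the Catsperg1 probe and of probe 1 of Catsperg2 thus lay between -0.12 and 0.12, and that of probe 2 of Catsperb lay wholly above them. Those of probes 1 and 3 of Catsperb, 0.11 to 0.33 and 0.09 to 0.65, overlapped them. The sign of the difference for the Catsperg1 probe and probe 1 of Catsperg2 turned under some settings.

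Kcnu1, the pore of the sperm potassium channel, has 1 probe at mm9 chr8:27042894-27044923 that joins separated stretches of the genome. It read 12.42, 12.36 and 12.47 in Prss55-/- and 12.25, 12.30 and 12.39 in wt testis. Prss55-/- array 2 lay below wt array 3, and the difference was 0.10 (interval -0.04 to 0.25, limma adjusted p = 0.384). Its auxiliary subunit gene Lrrc52 has 2 probes whose differences have opposite signs. Probe 1 (mm9 chr1:169396374-169396433), with a RefSeq accession, read 10.20, 10.45 and 10.55 in Prss55-/- and 10.47, 10.58 and 10.58 in wt testis. Prss55-/- array 1 lay furthest down, and the difference was -0.15 (interval -0.38 to 0.09, limma adjusted p = 0.455), or -0.05 without that array. Probe 2 (mm9 chr1:169397598-169397657), a dim probe without a RefSeq accession, read 6.69, 6.72 and 7.02 in Prss55-/- and 5.98, 6.57 and 6.41 in wt testis. Its difference of 0.49 (interval 0.08 to 0.90, unadjusted p = 0.0271, limma adjusted p = 0.204) had a standard error of 0.170. It was 0.26 with normexp background correction and 0.32 without wt array 1. The 2 probes of Lrrc52 differed by 0.64 in their log2 differences (two-sided exact permutation test, p = 0.1). That p is the lowest that 3 arrays against 3 can give, and it was 0.2 after adjustment over the 6 pairs. The direction for this gene depends on the probe.

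Hvcn1, the proton channel (mm9 chr5:122691981-122692040), read 7.22, 6.70 and 6.65 in Prss55-/- and 7.14, 7.07 and 7.38 in wt testis. Prss55-/- array 1 lay within the wt range and the other Prss55-/- arrays below it. The difference was -0.34 (interval -0.75 to 0.08, limma adjusted p = 0.339), and it ranged from -0.16 with normexp background correction to -0.52 without Prss55-/- array 1 (limma adjusted p = 0.0818). The macrophage and B cell markers had negative differences for 6 of 8 tested genes, with a median of -0.08. In limma 0 passed the adjusted threshold, where 1.19% of all genes did. Past the unadjusted one 3 were lower (Cd68, Cd14 and Cd163) and 1 higher (Ms4a1), where 19.8% of all genes passed. The summed linear signal of these markers was 3236 to 3452 in Prss55-/- and 3568 to 3616 in wt testis. None of the 8 was listed at 0, Cd79a was too dim to be tested, and the part of the markers in the Hvcn1 values was not tested. With an SD of 0.314 the Hvcn1 probe was the most variable of the 15 in Prss55-/- testis. In wt testis that was probe 2 of Lrrc52, at 0.302 against 0.165 for Hvcn1. The Hvcn1 probe was one of the dim ones, between the 40.9th and 47.0th percentile of the arrays.

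**Figure D3:**
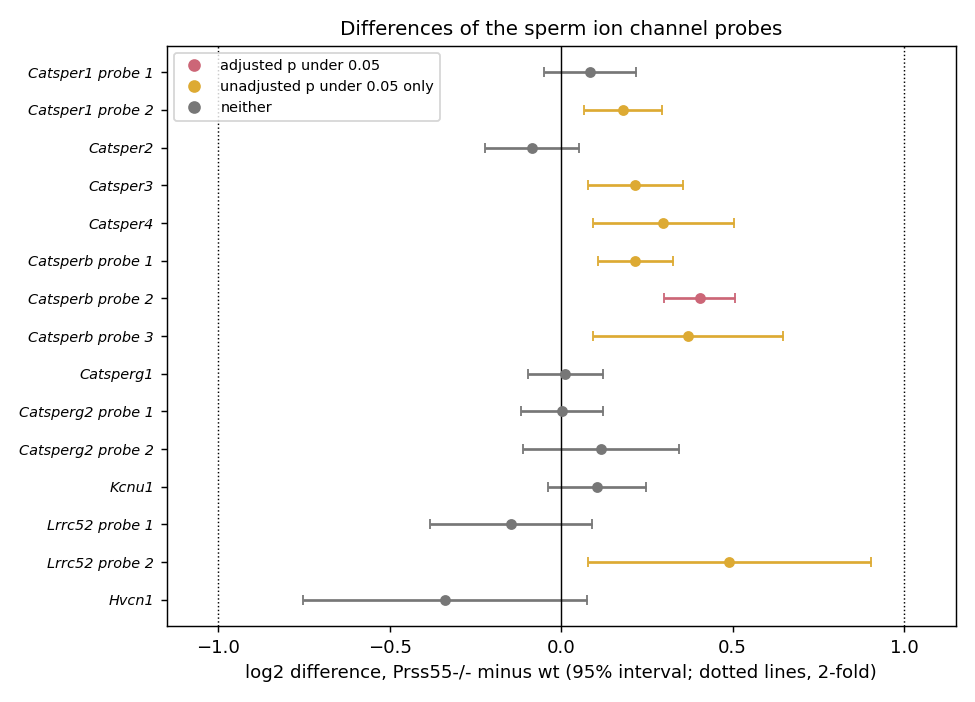
Log2 difference, Prss55-/- minus wt (x axis), of each channel probe with its 95% interval; dotted lines mark 2-fold in either direction. All 15 intervals lie inside 2-fold, 1 point (Catsperb probe 2) passes the adjusted threshold, 6 more pass the unadjusted one, and 12 lie to the right of 0.

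The intervals give the precision of the difference in probe signal between these arrays. They do not cover slide, which cannot be told apart from genotype, or how closely a probe signal follows its transcript. All 15 intervals lay inside 2-fold in either direction, as did 95.6% of the intervals of all tested probes. The median SD between arrays of the channel probes was 0.0541 in Prss55-/- and 0.0697 in wt testis, and 0.0740 and 0.0876 over all tested probes. A missed threshold does not show that a transcript was equal in both genotypes. The intervals reached up to 1.42-fold for Catsper4, 1.57-fold for probe 3 of Catsperb and 1.87-fold for probe 2 of Lrrc52, and down to 0.593-fold for Hvcn1. By array, the median deviation of the 15 probes from their own means was 0.07, 0.02 and 0.10 on Prss55-/- arrays 1 to 3 and -0.07, -0.09 and -0.02 on wt arrays 1 to 3, so that wt array 3 stood nearest to the Prss55-/- arrays. The deviation over all tested probes lay between -0.0004 and 0.008 on each array.

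The rank of the signals describes where the probes stood on an array, and gives no order of transcripts because probes differ in how well they bind. Catsper2, probe 1 of Catsperg2, both Catsper1 probes and Catsper3 stood between the 93.0th and 99.1th percentile of the signals of an array. Catsper4, the Catsperb probes 1 and 2 and Kcnu1 were between the 81.6th and 89.3th percentile, and the Catsperg1 probe, probe 2 of Catsperg2 and probe 1 of Lrrc52 between the 70.7th and 76.4th. Probe 3 of Catsperb, probe 2 of Lrrc52 and Hvcn1 stood between the 35.5th and 47.0th percentile, and these 3 also had the largest standard errors, from 0.114 to 0.170.

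The mean profile of Catsper1 to Catsper4 over the 6 arrays, each gene centred on its own mean, was highest on Prss55-/- array 3 at 0.08 and lowest on wt array 2 at -0.11. Among 16511 genes, the other genes with the smallest root mean square difference from it were 2410015M20Rik at 0.0164, Rasgrf1 at 0.0171 and 4933406B15Rik at 0.0177, beside a median of 0.122 over all genes. Of the channel genes outside the mean, Kcnu1 ranked 71st in likeness with a root mean square difference of 0.0319. Catsperb stood at 0.0634 (rank 1473), Catsperg1 at 0.0773 (rank 2795) and Catsperg2 at 0.0864 (rank 3848). Lrrc52 at 0.177 (rank 12472) and Hvcn1 at 0.298 (rank 15238) were less alike than the median gene. The genes in the mean are part of what they are set against. Of these, Catsper1 ranked 20th at 0.0244 and Catsper3 stood at 0.0602 (rank 1238). Catsper4 at 0.105 (rank 6235) and Catsper2 at 0.117 (rank 7698) were near the median of all genes. The root mean square difference is also small for a gene that varied little, such as Catsperg1. The profiles rest on 6 arrays.

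Other genes of sperm ion transport were read from 3 lists of 39 genes in all, of which 33 were on the array and 30 were tested. Of the CatSper auxiliary subunits, 4 of 9 genes had a probe by symbol (Catsperd, Efcab9, Slco6c1 and Als2cr11), and their log2 differences ranged from -0.08 to 0.11 with 0 past an unadjusted p of 0.05. Of the genes of sperm pH and bicarbonate signalling, 8 of 10 were tested and 1 had an unadjusted p below 0.05, Slc26a8, an anion transporter of the sperm tail, at -0.15 (limma adjusted p = 0.180). Of the ion pumps and other sperm channels, 18 of 20 were tested and 2 had such a p, the calcium-activated chloride channel Ano1 at 0.27 (limma adjusted p = 0.106) and the T-type calcium channel Cacna1h at -0.23 (limma adjusted p = 0.245). These 3 genes were picked out after their values were seen. By the brightest probe 0 of the 30 genes passed the adjusted threshold in limma and 3 the unadjusted one, where 1.19% and 19.8% of all genes did, and their median difference was 0.01.

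Beyond sperm, 203 genes carry symbols of the potassium, calcium, sodium, chloride, TRP, cyclic nucleotide-gated and related channel families, and 136 of them were tested. The brightest probe passed the adjusted threshold for 3, with 2 higher and 1 lower in Prss55-/- testis, beside 1.19% of all genes. The count was 9 without Prss55-/- array 1, 5 without wt array 3, 2 without wt array 2, and 1 without Prss55-/- array 2, Prss55-/- array 3 or wt array 1. Kcnab1, a cytosolic beta subunit of voltage-gated potassium channels, read 9.64, 10.28 and 10.08 in Prss55-/- and 7.05, 6.72 and 6.67 in wt testis at mm9 chr3:65182004-65182063. This difference of 3.19 (limma adjusted p = 0.00301) was not shared by its other tested probe, a dim one, at -0.07 (limma adjusted p = 0.845). Kcnh5, of the ether-a-go-go potassium channels, read 6.75, 7.27 and 6.88 in Prss55-/- and 5.85, 5.87 and 5.31 in wt testis. Its difference of 1.29 (limma adjusted p = 0.0485) rests on 1 tested probe, a dim one. Kcnip3, a calcium-binding partner of potassium channels, differed by -0.42 (limma adjusted p = 0.0401) and by 0.08 at its other probe.

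The genes around the channel genes were also read, within 1 Mb of the brightest probe on either side in mm9. For 7 of the 10, namely Catsper3, Catsper4, Catsperg1, Catsperg2, Kcnu1, Lrrc52 and Hvcn1, 0 neighbouring genes had a probe past the adjusted threshold in limma. Catsper1 had 1 of 96 (Cst6, -0.46), and Catsperb had 2 of 15 (D130020L05Rik at 0.71 and Smek1 at -0.33), where 1.56% of all genes had such a probe. Around Catsper2, whose own difference was small, 11 of 39 genes had one. Their log2 differences ran from -1.02 for Serinc4, 53.6 kb away, and -0.97 for Spg11 to 0.61 for AV039307, and 8 of the 11 were higher in Prss55-/- testis. Ell3, 41.6 kb away, was at 0.52 and Ppip5k1, 50.3 kb away on the other side, at 0.55. Each of the 11 was called by 1 probe, and 6 of them (AV039307, Ganc, Ppip5k1, Spg11, Ttbk2 and Zfp106) had other tested probes that were not called. Those others were at 0.12, 0.16 and 0.28 for Zfp106, -1.14 and -0.03 for Spg11, and -0.02 and 0.03 for Ganc. They were at 0.12 and -0.22 for Ppip5k1, -0.10 and -0.40 for Ttbk2, and -0.28 for AV039307. The count of 11 fell to 1 in each of the fits without Prss55-/- array 2, Prss55-/- array 3, wt array 1 or wt array 2, and was 11 without Prss55-/- array 1 and 9 without wt array 3, while the genes called over the whole array ranged from 25 to 655 in these fits. Near Catsperb, D130020L05Rik was called by 1 of its 3 tested probes, the others at 0.21 and 0.04. Smek1 was called by 1 of 4, not its brightest, the others between 0.002 and 0.07. Near Catsper1, Cst6 had 1 probe, a dim one. Without Prss55-/- array 1 the count was 2 near Catsper1 and 4 near Catsperb. It was 0 and 1 in each fit without another array, and also with normexp.

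**Figure D4:**
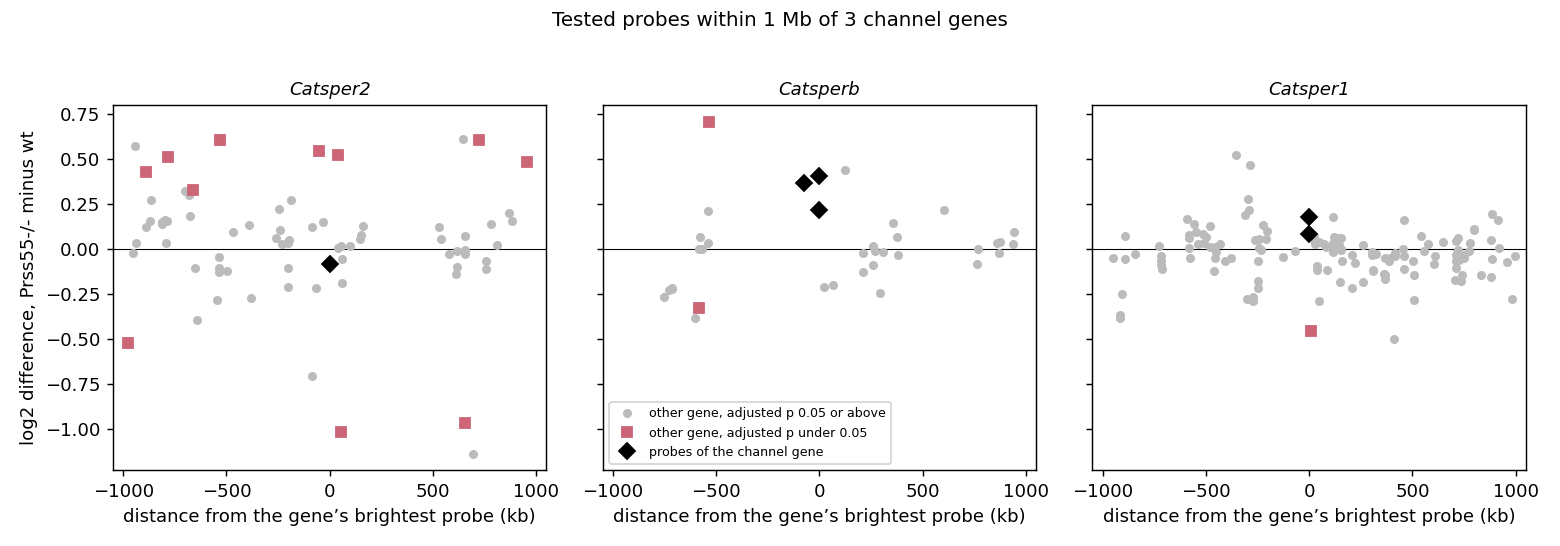
Log2 difference, Prss55-/- minus wt (y axis), of tested probes within 1 Mb of Catsper2, Catsperb and Catsper1 against their distance in kb from the brightest probe of that gene (x axis). Red squares are probes of other genes past the adjusted threshold, grey points the other probes and black diamonds the probes of the channel gene; red squares lie on both sides of Catsper2, and the Catsper2 probe itself lies at -0.09.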

How the data were processed

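The authors deposited a scanner table per array, made with Agilent Feature Extraction 10.7 by the submitters' processing notes, in which the processed signal is a linear intensity corrected for background within the array. They also deposited a table of quantile-normalized log2 values. Outlier spots were left out (2 missing values among the tested probes), signals below 1 were set to 1, log2 values were quantile-normalized and spots of a probe averaged, from 43379 spots to 41174 probes. The 3 Prss55-/- arrays were compared with the 3 wt arrays by lmFit and eBayes of limma 3.58.1 (two-sided, R 4.3.3). Benjamini-Hochberg adjustment ran over 28606 probes whose spots were all called well above background in every mouse of 1 genotype or of both. The number of arrays limits the precision.

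Alternatives were 75th percentile scaling, normexp (offset 50), the deposited table, no filter, the methods' t-test, slide as a random block, the replicate number as a block and each array left out in turn. Their use for the ion channel families and for neighbouring genes was chosen after seeing the data. Named were all channel probes, Prss55, list genes past the thresholds, ion channel family genes and neighbours within 1 Mb past an adjusted p of 0.05, and the 3 genes most like Catsper1 to Catsper4. The brightest tested probe stood for a gene. The members and lists were chosen with earlier results of these data known. Positions are those of the array files, whose headers name mm9; probe sequences are the files' own. Gene names of accessions came from RefSeq (GRCm38.p6). On data simulated after this comparison, with 28606 probes, the fit found 23 of 50 probes changed by 0.5 and 45 of 50 changed by 1 on the log2 scale, with 7 false calls. Plots were made with matplotlib 3.10.9 under Python 3.11.15.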

Additional observations from a re-analysis of the deposited data

How the results depend on the processing

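With 3 arrays for each genotype, the fits that leave out an array test few samples, and the cause of each change below was not tested. Over the settings tried, 13 of the 15 channel probes kept the sign of their difference. Probe 1 of Catsperg2 turned to -0.034 with normexp and ran from -0.019 to 0.026 with an array left out, and the Catsperg1 probe from -0.0044 to 0.032. Under no setting did 1 of the 15 pass an unadjusted p of 0.05 with 2-fold, and between 6 and 8 passed the unadjusted p alone.

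The same replicate number did not pair the mice (correlation of deviations -0.0543, -0.0227 and -0.112). With the replicate block the differences of probe 2 of Catsperb and of Prss55 were 0.40 and -0.90 as before, with limma adjusted p of 0.147 and 0.101, and 0 channel probes, 13 probes of the array and 0 genes of the ion channel families passed. Leaving out an array gave 0 to 1 channel probes past the adjusted threshold, a difference of 0.39 to 0.41 for probe 2 of Catsperb, -0.96 to -0.84 for Prss55 (adjusted p above 0.05 in 3 of the 6 fits), 38 to 855 probes of the array and 1 to 9 genes of the ion channel families in place of 346 and 3. The counts of the array were 140 without the filter and 87 by the methods' t-test, with 1 ion channel gene in each, and 6 such genes with normexp. By the methods' t-test the adjusted p of Prss55 was 0.0713 at -0.90. At an unadjusted p with 2-fold, 174 probes became 69 with normexp and 370 without the filter, and 116 by the methods' t-test, the test on which the study set these limits. With 75th percentile scaling the calls split into 210 higher and 147 lower in place of 160 and 186, with a median difference over all probes of 0.02. Of the 11 genes near Catsper2, 4 were called without the filter, 3 by the methods' t-test (with 1 other gene) and 0 with the replicate block. With normexp the differences of the dim probes were smaller, 0.21 for probe 3 of Catsperb, 0.26 for probe 2 of Lrrc52 and -0.16 for Hvcn1.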
